A study of Mus musculus with 313 samples.

Results

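The α4β7+ lymphoid precursor (aLP) is a fetal liver cell that can still give rise to innate lymphoid cells and to lymphoid tissue inducer cells, and Tcf7 was detected in only some of these cells. All but 1 of the aLP cells in the deposited table had at least 5 assays with a Ct below 24, which left 54 cells of the sorting experiment numbered 2 (sort 2) and 92 of that numbered 3 (sort 3). Of these, 33 had a Tcf7 Ct below 24, and 37 cells of sort 2 and 76 of sort 3 had no Tcf7 Ct. The Ct counts the PCR cycles needed for the fluorescence of an assay to reach its threshold, so a lower Ct stands for more cDNA. An assay was taken as detected at a Ct below 24. The cells were chosen by their own Tcf7 value, so Tcf7 itself is described and not tested, and the comparisons concern the other 99 assays of the panel of 100. The whole table held 313 cells.

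All cells were single cells from pooled livers of mouse embryos at day 15 and had been sorted without lineage markers, with IL7Rα (the α chain of the receptor for interleukin-7) and with the integrin α4β7. The aLP gate took cells negative for PLZF (the protein of Zbtb16) and for CXCR5. The innate lymphoid cell precursors (ILCP, 62 cells of sort 2 and 90 of sort 3) were PLZF-positive, and the lymphoid tissue inducer precursors (LTiP, 14 cells) were PLZF-negative and CXCR5-positive. No agent was given. Strain, genotype and the way PLZF was read in the sort are not given in the sources used here. Each cell name carries a 2 or a 3, which was taken as the sort and which no label defines. Since the livers were pooled and cells of 1 sort share their preparation, cells are not replicates, and the comparisons rest on 4 pools: Tcf7-detected and Tcf7-undetected aLP cells of sort 2 (17 and 37 cells) and of sort 3 (16 and 76 cells).

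Tcf7 encodes TCF-1, a DNA-binding protein of the HMG-box family. It is among the first factors that mark commitment of lymphoid progenitors to the T cell and innate lymphoid lineages. TCF-1 activates genes with β-catenin and other partners, and it represses genes with the Groucho co-repressors of the Tle family. In innate lymphoid development it is expressed at the earliest precursor stages, around the time when Nfil3, Tox, Id2, Gata3 and then Zbtb16 are expressed.

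Cells of the aLP gate had either a clear Tcf7 Ct or none. A missing Ct means that Tcf7 was not detected, and does not show that the transcript was absent. In sort 2 it was detected in 17 of 54 cells (31.5%, exact 95% interval 19.5 to 45.6%), with Ct values from 15.3 through a median of 18.04 to 20.7. In sort 3 it was detected in 16 of 92 cells (17.4%, interval 10.3 to 26.7%), with Ct values from 15.2 through a median of 17.9 to 21.2. No aLP cell had a Tcf7 Ct between 21.2 and 24 or above, so the other cells had no Ct at all. ILCP cells had Tcf7 in 55 of 62 cases in sort 2 (median Ct 16.1) and in 87 of 90 in sort 3 (median Ct 15.5). Within sort 3, Tcf7 was detected in 2 of 24, 8 of 35 and 6 of 33 aLP cells of the 3 successive blocks of 96 cell numbers. Tcf7-detected aLP cells had a higher median Ct, that is less Tcf7 cDNA, than the detecting ILCP cells of the same sort.

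Cells with Tcf7 also had more of the other assays detected. In sort 2, Tcf7-detected cells had a mean of 37.1 other assays (16 to 44, median 37) and Tcf7-undetected cells 29.5 (8 to 42, median 31). In sort 3 the means were 33.3 (26 to 46, median 32.5) and 26.9 (18 to 37, median 26). The pool means were 35.2 ± 2.69 (SD, n = 2 pools) and 28.2 ± 1.79, a difference of 7.03 assays (7.66 in sort 2 and 6.39 in sort 3). The exact two-sided permutation test over the 4 pools gave p = 0.333, the smallest value that 2 against 2 pools allow. ILCP cells had more still, with means of 39.9 and 39.8. Counted over both sorts, Tcf7 was detected in 1 of 38 aLP cells with under 25 other assays, in 12 of 68 with 25 to 34, and in 20 of 40 with 35 or more. The sorts fill these ranges unequally. In sort 2 the counts were 1 of 12, 0 of 12 and 16 of 30 cells, and in sort 3 they were 0 of 26, 12 of 56 and 4 of 10. A cell with more cDNA gives more detected assays, so the fit was also run against Tcf7-undetected cells of the same sort with a like number of detected assays, with the values given after the gene groups. The part of cDNA amount in the unmatched differences was not tested further.

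**Figure D1:**
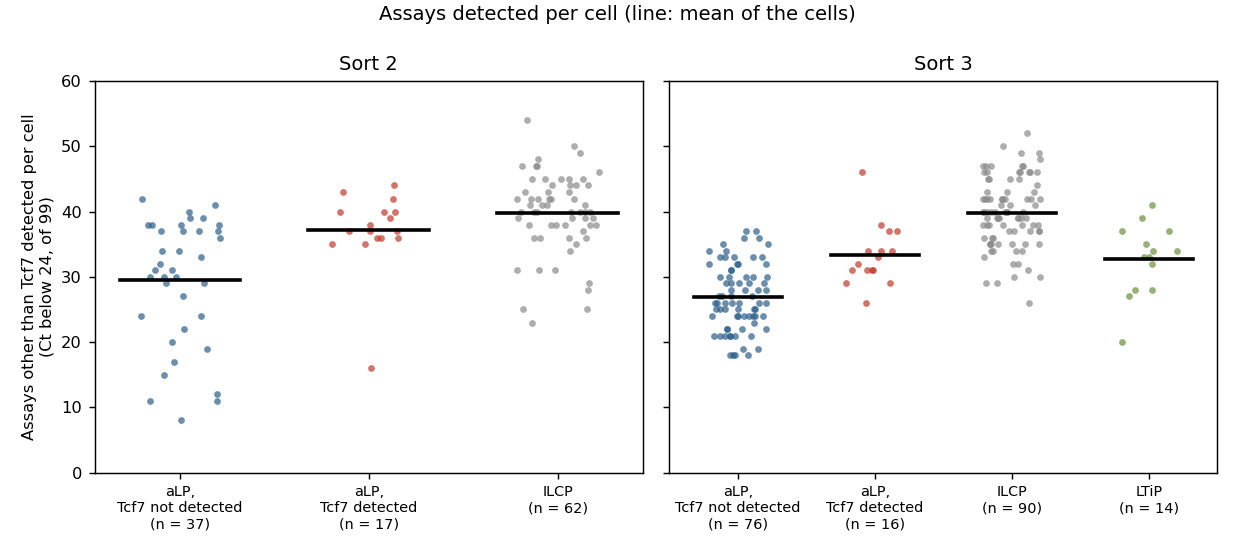
Number of assays other than Tcf7 detected per cell (vertical axis, of 99), 1 dot per cell, in sort 2 and sort 3, with the mean of each group as a line. The Tcf7-detected aLP cells (means 37.1 and 33.3) lie above the Tcf7-undetected aLP cells (29.5 and 26.9) in both sorts, and the ranges overlap.

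No housekeeping transcript passed the test between the classes, but neither did any other assay (0 of 85 tested). This result is therefore not particular to these transcripts and does not show equal levels. Actb was detected in every cell of the 4 pools, and its mean level (24 minus Ct, or 0 where undetected, averaged over the cells of a pool) was 11.45 with and 10.3 without Tcf7 in sort 2, and 11.001 and 11.4 in sort 3. The difference in Actb was thus 1.12 cycles in sort 2 and -0.44 in sort 3. That in Hprt was 0.40 and -1.01, and that in Gapdh 0.34 and 0.06. Tbp had no Ct below 24 in any aLP cell of sort 2. The signs of Actb, Gapdh, Hprt and Tbp each turned under at least 1 alternative setting.

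For testing, an assay had to be found in 5% or more of the cells of 1 pool, which 85 assays were. Among them, no assay passed the test between the classes (limma on 4 pool means, Benjamini-Hochberg adjusted p under 0.05), that is 0 of 85 or 0%. At an unadjusted p under 0.05 there were 14. The smallest adjusted p of the limma fit was 0.0568, for Irf8. Levels leaned to the Tcf7-detected cells: 65 of 85 differences were above 0, with a median of 0.34 cycles. The filter adds to this lean, since 1 cell of a Tcf7-detected pool met the 5% and 1 cell of a Tcf7-undetected pool did not. Without the filter 65 of 99 differences were above 0 (65.7%), with a median of 0.16 cycles. In both sorts the level was higher with Tcf7 for 38 assays and lower for 8. The other 39 are called mixed, which means opposite signs or a difference of 0 in a sort. The pools of the classes did not overlap for 34 assays (40% of those tested), with 28 higher and 6 lower. Such a difference combines how many cells detect a gene and how much each holds, and cannot be read as a fold change.

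Both classes come out of the same sorted cells, so the sort pairs the pools. With the sort as a block in limma, 17 of 85 assays passed (20%), 15 higher and 2 lower with Tcf7. The higher ones included Tox, Cxcr5, Runx3, Nfil3, Ets1, Cd27, Il2rb, Sox4, Cdkn1c, Zbtb16, Lmo4, Il7r, Lta and H19, and the lower ones were Irf8 and Tle1. This fit has 1 residual degree of freedom and gives all assays 1 common spread, so its small p-values, down to 9.95e-09 for Tox, depend on that shared spread.

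**Figure D2:**
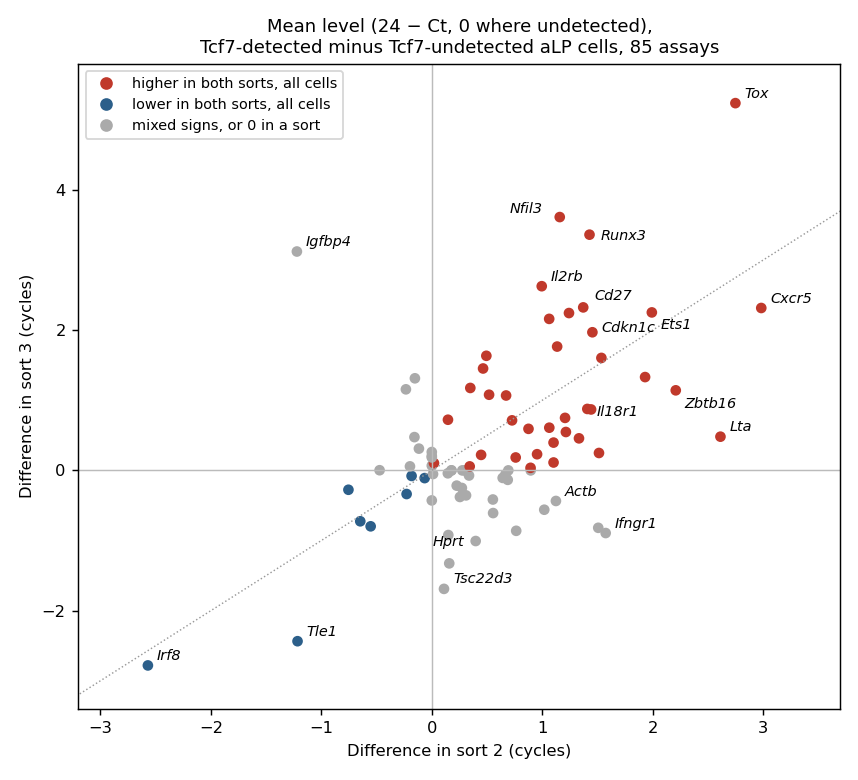
Difference in mean level between Tcf7-detected and Tcf7-undetected aLP cells in sort 2 (horizontal axis, cycles) and sort 3 (vertical axis, cycles) for 85 assays. Red and blue mark the 38 assays higher and the 8 lower in both sorts, grey the 39 others, and the dotted line marks equal differences. Irf8 and Tle1 lie at the lower left and Tox at the upper right, while Igfbp4 has opposite signs.

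Among the factors of early innate lymphoid development, most were more often detected beside Tcf7. Of 11 such genes on the panel 10 were tested. None passed in the fit without the block and 6 passed, all higher, with it (Tox, Runx3, Nfil3, Ets1, Sox4 and Zbtb16), beside 17 of 85 over all assays. The level was higher in both sorts for 7 (beside 38 of 85), lower for none and mixed for 3, and the median difference was 1.71 cycles beside 0.34 over all 85 assays. Tcf7-detected cells held a median of 6 (4 to 8) of these 11 transcripts in sort 2 and 4.5 (3 to 6) in sort 3. Tcf7-undetected cells held 4 (1 to 7) and 2 (0 to 6), and ILCP cells 7 in both sorts.

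Tox, a nuclear factor required for innate lymphoid precursors, was detected in all 33 Tcf7-detected cells. Without Tcf7 it was detected in 33 of 37 cells of sort 2 (89.2%) and in 36 of 76 cells of sort 3 (47.4%). The median Ct among detecting cells was 14.6 and 16.6 with Tcf7, and 16.2 and 18.9 without. The difference in mean level was 2.75 cycles in sort 2 and 5.24 in sort 3 (mean 3.99 ± 1.37, SE; limma adjusted p = 0.288, with the sort as a block 9.95e-09). The Tcf7-undetected pools themselves lay far apart, at a mean level of 6.21 and 2.54.

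Nfil3, a factor that acts upstream of Id2 in innate lymphoid commitment, showed the same unequal pattern. It was detected in 15 of 17 and 16 of 16 Tcf7-detected cells, and in 30 of 37 and 34 of 76 Tcf7-undetected cells. Its difference was 1.16 cycles in sort 2 and 3.61 in sort 3 (limma adjusted p = 0.314, with the block 0.000559). Runx3, a Runt-domain factor of innate lymphoid and cytotoxic cells, was found in 16 of 17 and 15 of 16 cells with Tcf7, and in 31 of 37 and 48 of 76 without. Its difference was 1.43 and 3.36 cycles. For both genes nearly all Tcf7-detected cells were positive, and the wider difference lay in sort 3.

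Ets1, a factor needed for natural killer cells and innate lymphoid precursors, differed by like amounts in the sorts. It was detected in 9 of 17 (52.9%) and 10 of 16 (62.5%) cells with Tcf7, and in 7 of 37 (18.9%) and 18 of 76 (23.7%) without. The mean level was 2.87 and 3.28 with Tcf7 and 0.88 and 1.02 without. The difference of 1.99 and 2.25 cycles (SE of the mean 0.33) had a limma adjusted p of 0.105, and 0.0027 with the block. Sox4, an HMG-box factor of lymphoid progenitors, was detected in 13 of 17 and 10 of 16 cells with Tcf7 and in 27 of 37 and 22 of 76 without.

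Other factors of the list were rare in aLP cells. Id2, the inhibitor of E proteins that marks innate lymphoid commitment, was detected in 6 of 17 Tcf7-detected cells of sort 2 and in 0 of 16 of sort 3. In the Tcf7-undetected cells it was detected in 5 of 37 and 11 of 76. Gata3, which drives T cell and type 2 innate lymphoid development, was found in 4 of 17 and 0 of 16 cells with Tcf7, and in 2 of 37 and 0 of 76 without. Rora, a nuclear receptor of type 2 cells, was found in 4 of 17 and 2 of 16 cells with Tcf7, and in 2 of 37 and 0 of 76 without. Lef1, the HMG-box relative of Tcf7, was detected in 1 of the 33 cells. Bcl11b, a T cell and type 2 commitment factor, was detected in 0 of 33 Tcf7-detected cells, which allows a share of up to 9.09%, and in no other aLP cell. In ILCP cells Bcl11b was present in 22 of 62 and 29 of 90 cells.

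The 2 genes of the sort gate were transcribed in many Tcf7-detected cells. Cxcr5, the receptor for the chemokine CXCL13, was detected in 11 of 17 cells of sort 2 (64.7%, interval 38.3 to 85.8%) and in 7 of 16 cells of sort 3 (43.8%, interval 19.8 to 70.1%). Its Ct ran from 16.3 to 22.5 (median 19.1) in sort 2 and from 17.8 to 20.7 (median 18.8) in sort 3. Without Tcf7 it was detected in 3 of 37 cells (8.11%) and in 0 of 76, which allows a share of up to 3.95%. The difference in level was 2.65 ± 0.45 cycles (SE), with 2.98 in sort 2 and 2.32 in sort 3 (limma adjusted p = 0.105, with the block 0.000144).

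Zbtb16, the gene of PLZF, was detected in 8 of 17 (47.1%, interval 23.0 to 72.2%) and 3 of 16 (18.8%, interval 4.05 to 45.6%) Tcf7-detected cells. Without Tcf7 it was detected in 3 of 37 (8.11%, interval 1.70 to 21.9%) and 0 of 76. Its difference was 2.21 and 1.14 cycles (limma adjusted p = 0.288, with the block 0.0197). Counted together, 8 of the 33 cells had both transcripts, 3 had Zbtb16 only, 10 had Cxcr5 only and 12 had neither. Without Tcf7, neither was detected in 31 of 37 and 76 of 76 cells, and the 6 remaining cells, all of sort 2, had Zbtb16 only (3 cells) or Cxcr5 only (3 cells). The other gated proteins were Il7r and Itga4 products. Itga4, the integrin α4 chain, was detected in all 33 cells, and Il7r, the interleukin-7 receptor α chain, in 10 of 17 and 8 of 16 Tcf7-detected cells, beside 20 of 37 and 20 of 76 without Tcf7.

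**Figure D3:**
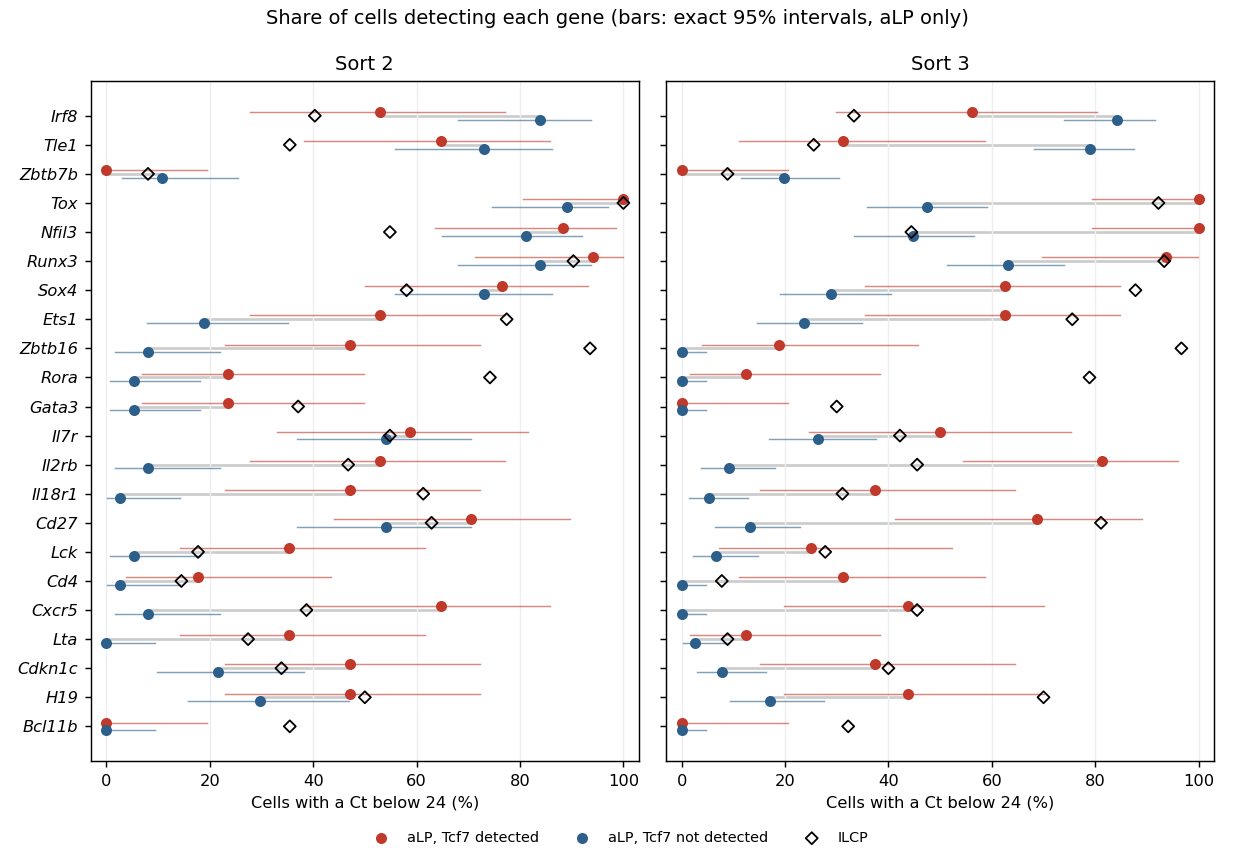
Share of cells with a Ct below 24 (horizontal axis, percent) for 22 genes in sort 2 and sort 3. Red points are Tcf7-detected and blue points Tcf7-undetected aLP cells with exact 95% intervals, and diamonds are ILCP cells. Cxcr5, Il2rb and Il18r1 lie far to the right with Tcf7 in both sorts, Irf8 lies to the left, and Zbtb16 and Rora stay well short of the ILCP shares.

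By share of cells, the 5 assays whose pattern was most like that of Tcf7 (largest difference in the sort where it was smaller) were Il2rb, Cxcr5, Ets1, Il18r1 and Cdkn1c. The smaller of the 2 differences was 44.8 percentage points for Il2rb, 43.8 for Cxcr5, 34.02 for Ets1, 32.2 for Il18r1 and 25.4 for Cdkn1c. These 5 were chosen by their difference between these cells, so their count per cell had to separate the classes and is a description only. At least 3 of the 5 transcripts were detected in 9 of 17 and 9 of 16 Tcf7-detected cells, against 1 of 37 and 2 of 76 Tcf7-undetected cells. The same held for 36 of 62 and 45 of 90 ILCP cells and 11 of 14 LTiP cells. None of the 5 was detected in 2 of 17 and 0 of 16 cells with Tcf7, and in 22 of 37 and 50 of 76 cells without.

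By share of cells, Il2rb and Il18r1 differed most among the cytokine receptors. Of 10 such assays 8 were tested, of which 5 were higher in both sorts, 0 lower and 3 mixed, with a median difference of 0.59 cycles, beside 38 of 85 higher in both and a median of 0.34 over all assays. None passed without the block, and Il2rb and Il7r passed with it (2 of 8, beside 17 of 85 over all assays). Il7r did not pass after the match on detected assays (limma adjusted p with the block 0.807). Il2rb, the shared β chain of the interleukin-2 and interleukin-15 receptors, was detected in 9 of 17 (52.9%) and 13 of 16 (81.2%) cells with Tcf7 and in 3 of 37 (8.11%) and 7 of 76 (9.21%) without. Most of its Ct values were late, with a median of 21.5 and 20.5 among the Tcf7-detected cells, so the level differed by only 1.00 and 2.63 cycles. Il18r1, an interleukin-18 receptor chain, was detected in 8 of 17 (47.1%) and 6 of 16 (37.5%) cells with Tcf7, against 1 of 37 (2.70%) and 4 of 76 (5.26%) without. Its difference of 1.14 ± 0.33 cycles (SE) did not pass in either fit (limma adjusted p = 0.236, with the block 0.173). Il12rb2, an interleukin-12 receptor chain, differed by 0.73 and 0.71 cycles and did not pass.

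Genes of lymphoid tissue inducer cells included Cxcr5 and Lta. On the panel were 10, and of the 9 tested 5 were higher in both sorts, 0 lower and 4 mixed, with a median difference of 0.59 cycles, beside 38 of 85 and 0.34 over all assays. With the block 3 of the 9 passed, Cxcr5 and Lta among them, beside 17 of 85. Lta, the gene of lymphotoxin α, was found in 6 of 17 and 2 of 16 cells with Tcf7, and in 0 of 37 and 2 of 76 without. Its Ct reached 12.5 in 1 cell of sort 2. Cd4, which is found on lymphoid tissue inducer cells as well as on T helper cells, was detected in 3 of 17 and 5 of 16 cells with Tcf7, and in 1 of 37 and 0 of 76 without. Tnfsf11, the RANK ligand, was found in 2 of 17 and 0 of 16 cells with Tcf7 and in 1 of 37 and 6 of 76 without. In LTiP cells, all of sort 3, Cxcr5 was detected in 12 of 14, Lta in 9 of 14 and Zbtb16 in 7 of 14 cells.

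The type 1 and natural killer genes tested were Il2rb and Il12rb2, found in 22 of 33 and 15 of 33 Tcf7-detected cells, and Tbx21. Of these 3, 2 were higher in both sorts (beside 38 of 85) and 1 passed with the block (beside 17 of 85). The share of cells with Il12rb2 was higher with Tcf7 by 23.2 and 13.8 percentage points. Against cells with a like number of detected assays it was 52.9% against 51.2% in sort 2 and 33.3% against 22.8% in sort 3. Tbx21, the master factor of type 1 cells, was detected in 0 of 33 Tcf7-detected cells and in 0 of 37 and 7 of 76 cells without Tcf7. Of 11 type 2 genes 8 were tested: 3 were higher in both sorts (Rora, Il1rl1 and Il18r1), 0 lower and 5 mixed. Over all 85 assays these numbers were 38, 8 and 39. Among the mixed ones Gata3 and Rxrg were higher in sort 2 and had a difference of 0 in sort 3, while Ccr8 had opposite signs. None of the 8 passed in either fit, beside 17 of 85 with the block over all assays. Il1rl1, the interleukin-33 receptor, was found in 4 of 17 and 2 of 16 cells with Tcf7 and in 2 of 37 and 8 of 76 without.

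Genes of the T cell lineage and the Notch pathway showed a mixed picture. Of 13 on the panel 11 were tested, with 5 higher in both sorts, 1 lower and 5 mixed. Over all 85 assays these numbers were 38, 8 and 39. The median difference was 0.45 cycles, beside 0.34 over all assays. Only Cd27 passed, in the fit with the block (1 of 11, beside 17 of 85 over all assays). Its limma adjusted p was 0.0121 with the block and 0.371 without. Cd27, a co-stimulatory receptor of the tumour necrosis factor receptor family, was detected in 12 of 17 and 11 of 16 cells with Tcf7 and in 20 of 37 and 10 of 76 without. Lck, the kinase of T cell receptor signalling, was detected in 6 of 17 and 4 of 16 cells with Tcf7, and in 2 of 37 and 5 of 76 without. Notch1, the receptor that directs T cell fate, differed by 0.02 and 0.10 cycles. The Notch target Hes1 was detected in 0 of 17 and 6 of 16 cells with Tcf7 and in 1 of 37 and 3 of 76 without. Zbtb7b, which encodes ThPOK, the factor of the CD4 T cell lineage, was the member of this list that was lower in both sorts. It was detected in 0 of 33 Tcf7-detected cells, and in 4 of 37 and 15 of 76 cells without Tcf7 (difference -0.55 and -0.80 cycles, limma adjusted p = 0.333).

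Irf8 was the assay with the largest deficit beside Tcf7. It encodes an interferon regulatory factor required for dendritic cells and monocytes and also active in B cells. Irf8 was detected in 9 of 17 (52.9%) and 9 of 16 (56.2%) cells with Tcf7 and in 31 of 37 (83.8%) and 64 of 76 (84.2%) without. Among detecting cells, its Ct ran from 15.6 to 20.9 (median 18.6) and from 16.6 to 21.1 (median 19.5) with Tcf7. Without Tcf7 it ran from 14.1 to 22.3 (median 16.7) and from 13.9 to 23.3 (median 17.1). Both the share of cells and the amount in detecting cells were lower with Tcf7, in both sorts. The mean level was 2.84 ± 0.08 with Tcf7 and 5.52 ± 0.07 without (SD, n = 2 pools), a difference of -2.68 ± 0.29 cycles (SE). The limma adjusted p of 0.0568 missed the threshold. It was 0.000144 with the block, and over 23 alternative settings it ran from 0.0001 to 0.784 and passed in 6.

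Other genes of the B and myeloid lineages differed by less. Of the B lineage list, 5 genes were on the panel and 3 were tested, and besides Irf8 the differences were 0.27 and -0.25 cycles for Bcl11a and 0.23 and -0.22 for Foxo1. The defining B cell genes Ebf1 and Pax5 were detected in 0 of 33 cells with Tcf7 and in 1 cell each without. The summed mean level of the 5 B lineage assays was 5.64 and 5.08 with Tcf7 and 7.72 and 8.47 without, and Irf8 alone differed by -2.57 and -2.78 cycles. From the myeloid and dendritic list only Irf8 and Pira11 had assays. Pira11, of the paired immunoglobulin-like receptors of myeloid and B cells, was detected in 3 of 17 and 3 of 16 cells with Tcf7 and in 5 of 37 and 32 of 76 without. Rag2, the recombinase gene of early lymphoid cells, was detected in 5 of 17 and 1 of 16 cells with Tcf7 and in 16 of 37 and 7 of 76 without. The erythroid and megakaryocyte list was represented by Itga2b alone, found in few aLP cells.

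The Groucho co-repressors, partners of TCF-1, went different ways. Of 5 on the panel 4 were tested: Tle1 was lower in both sorts, Tle3 higher, and Tle2 and Tle4 mixed. Tle4 had opposite signs, while Tle2 had a difference of 0 in sort 2. Over all 85 assays 38 were higher in both sorts, 8 lower and 39 mixed. With the block 1 of the 4 passed, beside 17 of 85. Tle1 was detected in 11 of 17 (64.7%) and 5 of 16 (31.2%) cells with Tcf7 and in 27 of 37 (72.97%) and 60 of 76 (78.9%) without. Its difference was -1.22 and -2.44 cycles (limma adjusted p = 0.326, with the block 0.0121). Tle3 was detected in all 33 cells with Tcf7 and differed by 0.46 and 1.45 cycles, without passing. Tle4 was detected in 13 of 17 and 11 of 16 cells with Tcf7 and in 28 of 37 and 54 of 76 without, and Tle2 in 1 of the 33 cells.

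Cdkn1c and H19, which lie in the same imprinted cluster, were more frequent beside Tcf7. Cdkn1c, an inhibitor of cyclin-dependent kinases, was detected in 8 of 17 (47.1%) and 6 of 16 (37.5%) cells with Tcf7 and in 8 of 37 (21.6%) and 6 of 76 (7.89%) without. Its difference was 1.45 and 1.97 cycles (limma adjusted p = 0.210, with the block 0.0175). H19, a long non-coding RNA of fetal tissues, was detected in 8 of 17 and 7 of 16 cells with Tcf7 and in 11 of 37 and 13 of 76 without (with the block limma adjusted p = 0.0458). Against cells with a like number of detected assays neither passed: Cdkn1c differed by 0.82 and 1.30 cycles and H19 by 0.32 and 1.12 (limma adjusted p with the block 0.239 and 0.507). Its neighbour Igf2, a fetal growth factor, was detected in 0 of 33 cells with Tcf7 and in 2 cells without, both of sort 3. Lmo4, a LIM-only transcriptional adaptor, was present in most cells, and differed in level by 1.93 and 1.33 cycles. Its share of cells with Tcf7 minus that without was 16.2 percentage points in sort 2 and -0.99 in sort 3. Bcl2, an inhibitor of apoptosis, differed by 0.49 and 1.63 cycles and did not pass.

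The sorts did not always point the same way. The growth regulator Myc differed by 0.76 cycles in sort 2 and -0.86 in sort 3. Of the 85 assays, 39 had opposite signs in the sorts or a difference of 0 in 1 of them. The widest split was Igfbp4, which encodes a binding protein of insulin-like growth factors. It was detected in 11 of 17 Tcf7-detected and 32 of 37 Tcf7-undetected cells of sort 2, but in 14 of 16 and 29 of 76 cells of sort 3. Its difference was therefore -1.22 cycles in sort 2 and 3.122 in sort 3. It is named here because its values stood out.

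Against cells with a like number of detected assays, Irf8, Tle1, Cxcr5, Il2rb, Tox, Zbtb16 and Lta still differed in the fit with the block. For this match, each Tcf7-detected cell was set against Tcf7-undetected cells of its sort whose number of other detected assays was within 3 of its own. All 17 cells of sort 2 and 15 of 16 of sort 3 found matches, with mean numbers of 37.1 against 36.8 and 32.5 against 31.9 assays. The median difference was 0.09 cycles in place of 0.34, 46 of 85 differences were above 0, and 25 assays were higher and 25 lower in both sorts. Since the match evens out the number of detected assays, counted over these same assays, this balance follows from the match. No assay passed without the block (5 had an unadjusted p under 0.05). With it, 7 of 85 passed (8.24%), which were Cxcr5, Tox, Il2rb, Zbtb16 and Lta, higher, and Irf8 and Tle1, lower.

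Irf8 kept its size after the match, at -2.17 cycles in sort 2 and -3.21 in sort 3 (mean -2.69, against -2.68 before). Tle1 differed by -2.06 and -1.96 cycles. Cxcr5 still differed by 2.68 and 2.07 cycles, with shares of 64.7% against 16.96% in sort 2 and 40.0% against 0% in sort 3. Il2rb was detected in 52.9% against 13.8% of matched cells in sort 2 and in 80% against 15.3% in sort 3. Il18r1 was detected in 47.1% against 6.57% and in 33.3% against 12.2%. Its level differed by 1.30 and 0.38 cycles after the match and did not pass (limma adjusted p with the block 0.394). The difference in Tox was 0.89 and 3.45 cycles, and in sort 2 nearly all matched cells had it (97.2%).

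By contrast, the differences in several other genes were smaller after the match. That in Lmo4 went from 1.63 to 0.04 cycles, that in Sox4 from 1.74 to 0.09 and that in Il7r from 1.57 to 0.34. Ets1 differed by 1.37 and 1.58 cycles (limma adjusted p with the block 0.0561) and Lck by 1.00 and 0.18. Runx3 and Cd27 retained a difference in sort 3 (2.22 and 1.74 cycles) and had little in sort 2 (0.07 and 0.24). Nfil3 likewise differed by -0.04 cycles in sort 2 and 2.74 in sort 3. Of the 10 tested factors of early innate lymphoid development 5 remained higher in both sorts, 0 were lower and 5 mixed, and Tox and Zbtb16 passed with the block, with a median of 0.93 cycles beside 0.09 over all assays. Myc and Tle4, which had differed by -0.05 and -0.06 cycles, lay at -1.30 and -1.21 after the match.

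**Figure D4:**
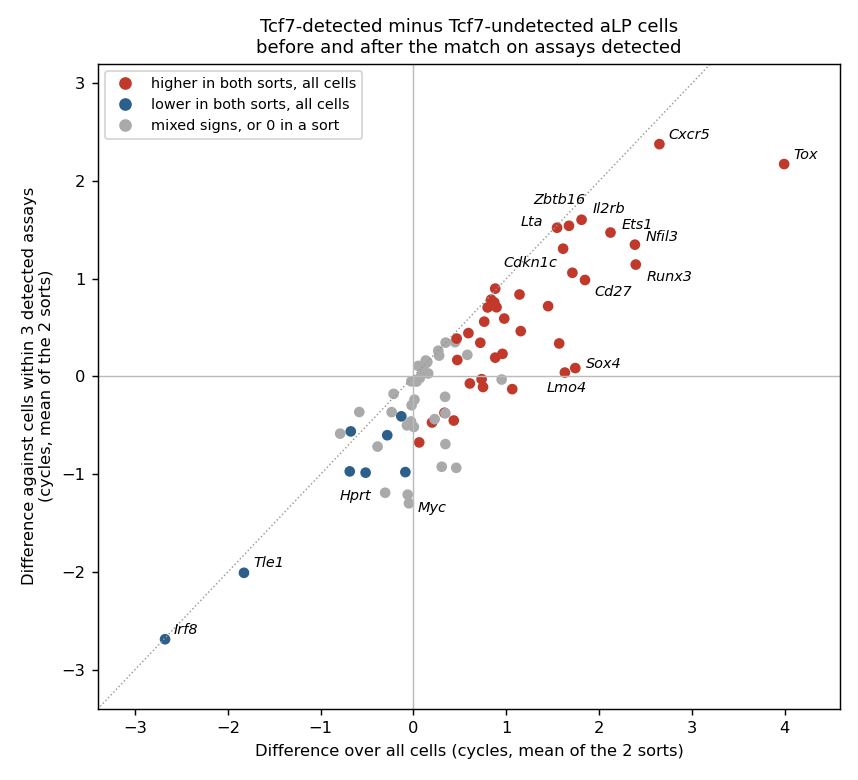
Difference in mean level between Tcf7-detected and Tcf7-undetected aLP cells over all cells (horizontal axis, cycles, mean of 2 sorts) and against cells within 3 detected assays (vertical axis), for 85 assays, with colours by the sign over all cells. Irf8 and Tle1 lie near the dotted line of equal values, Cxcr5, Zbtb16, Il2rb and Lta a little below it, and Sox4 and Lmo4 near 0 on the vertical axis.

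The 33 Tcf7-detected cells differed among themselves by the transcripts of the gate genes. The median Tcf7 Ct was 15.8 in the 8 cells with both Zbtb16 and Cxcr5, 16.2 in the 3 with Zbtb16 only, 17.1 in the 10 with Cxcr5 only and 19.8 in the 12 with neither. Within sort 2, cells with Cxcr5 had a median Tcf7 Ct of 16.7 and those without 19.4, and in sort 3 the medians were 16.7 and 20.03. Cells with and without either transcript had like numbers of other detected assays, with means of 35.7 and 34.5. Tcf7 cDNA was thus lowest in the cells that had neither transcript, in both sorts.

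Several genes, chosen after their values were seen, differed in frequency between these groups of cells. Irf8 was detected in 9 of the 12 cells with neither transcript and in 9 of the 21 with Zbtb16 or Cxcr5. In sort 2 this was 4 of 4 against 5 of 13, and in sort 3 it was 5 of 8 against 4 of 8. Cells with Irf8 had a median Tcf7 Ct of 18.99 in sort 2 and 18.1 in sort 3, and cells without it 16.4 and 17.1. Tle1 was found in 7 of 12 against 9 of 21 cells. Rora (6 cells), Gata3 (4 cells, all of sort 2) and Csf2 (6 cells), which encodes the growth factor GM-CSF, were each detected only among the 21. The 21 are the larger group, and other rare transcripts, such as Ccr8 and Tnfsf11 (2 cells each), were also detected only there. Lta was detected in 7 of 21 cells against 1 of 12, Cd4 in 7 of 21 against 1 of 12, and Rag2 in 2 of 21 against 4 of 12. Tox was in all cells of both kinds. These counts rest on 4 and 8 cells with neither transcript in the sorts, and no test was made.

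**Figure D5:**
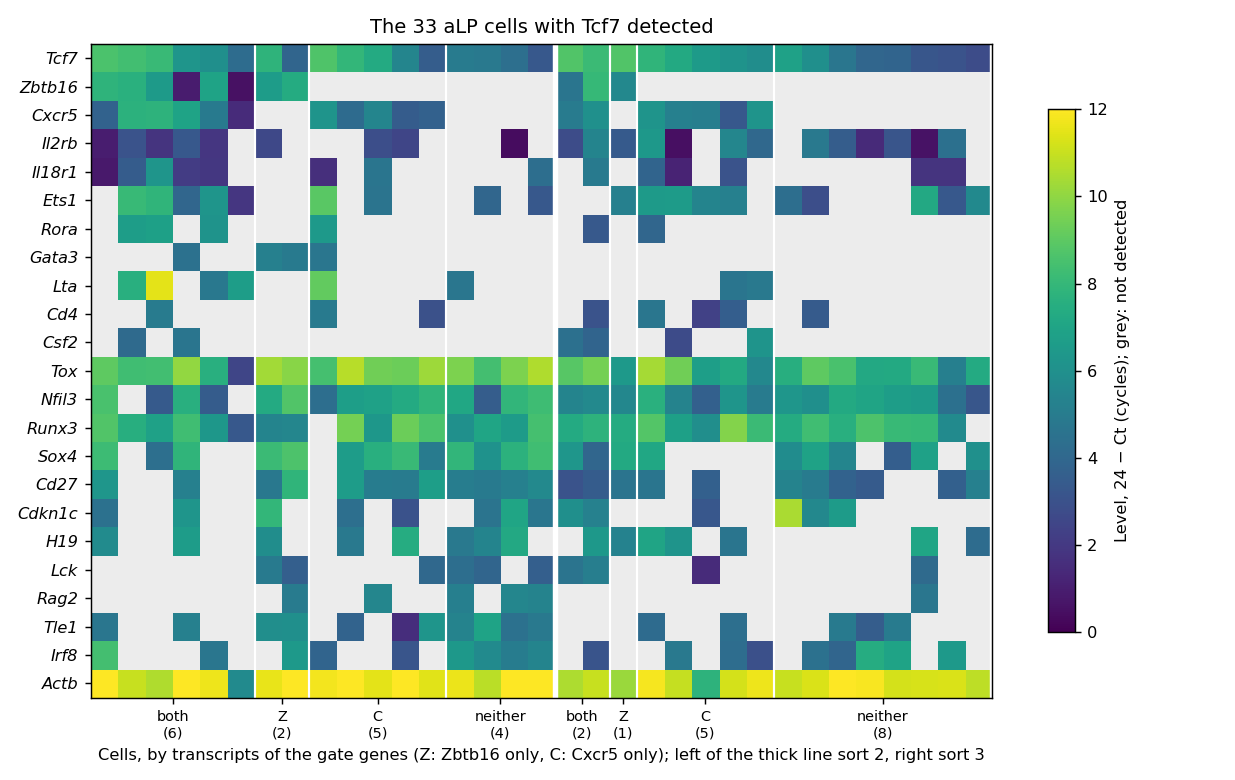
Level (24 minus Ct, cycles, colour; grey where undetected) of 23 genes (rows) in the 33 Tcf7-detected aLP cells (columns), ordered by sort and by which gate transcripts were detected (both, Zbtb16 only, Cxcr5 only, neither; number of cells in brackets). The median Tcf7 Ct is highest in the cells with neither transcript (19.8), Rora, Gata3 and Csf2 appear only where Zbtb16 or Cxcr5 does, and Tox and Actb are in every cell.

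Without the aLP cells that had Zbtb16 or Cxcr5, the comparison changed in content. It then set 4 and 8 Tcf7-detected cells against 31 and 76 others. The mean difference of the sorts dropped to -0.92 cycles in Irf8, -0.60 in Tle1 and 0.97 in Il2rb. For Irf8 and Tle1 the lower share of cells with Tcf7 was seen in sort 3 only. Irf8 was detected in 4 of 4 cells with Tcf7 against 26 of 31 without in sort 2, and in 5 of 8 against 64 of 76 in sort 3. For Tle1 the counts were 4 of 4 against 22 of 31, and 3 of 8 against 60 of 76. Tox (4.36 cycles), Sox4 (3.123), Nfil3 (3.09), Cdkn1c (2.83), Cd27 (2.83), Lmo4 (2.47) and Runx3 (2.43) differed as much as or more than over all cells. This comparison was not matched on detected assays. Their mean number was 38.25 with and 28.5 without Tcf7 in sort 2, and 32.6 and 26.9 in sort 3. In the match above, made with all cells, Sox4 and Lmo4 differed by only 0.09 and 0.04 cycles. No assay passed (limma, 0 of 69, and 8 at an unadjusted p under 0.05). Among the cells with neither gate transcript, Cd27 was detected in 4 of 4 and 6 of 8 cells with Tcf7 and in 15 of 31 and 10 of 76 without.

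Set against ILCP cells, the Tcf7-detected aLP cells differed most in Zbtb16, Rora and Nfil3. Of 92 assays tested between these classes 4 passed (limma, 4.35%): Nfil3 was higher, and Zbtb16, Rora and Rxrg were lower in the aLP cells. At an unadjusted p under 0.05 there were 13. The pools did not overlap for 48 assays (52.2%), with 10 higher and 38 lower. The median difference over all assays was -0.22 cycles, so ILCP levels were on the whole higher. ILCP cells also had more assays detected, as given above.

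Zbtb16 was detected in 58 of 62 and 87 of 90 ILCP cells, the classes being separated by PLZF in the sort, and differed by -5.87 ± 0.61 cycles (SE, limma adjusted p = 0.0315). Rora was detected in 46 of 62 (74.2%) and 71 of 90 (78.9%) ILCP cells, beside 23.5% and 12.5% of Tcf7-detected aLP cells. Its level differed by -4.18 ± 0.47 cycles (limma adjusted p = 0.0315). Rxrg, a retinoid X receptor gene, was detected in 24 of 62 and 32 of 90 ILCP cells and in 1 of 33 Tcf7-detected aLP cells (-2.11 ± 0.27 cycles, limma adjusted p = 0.0384). For Nfil3 the shares were 54.8% (34 of 62) and 44.4% (40 of 90) in ILCP cells and 88.2% and 100% in the aLP cells, a difference of 3.09 cycles in sort 2 and 3.65 in sort 3 (3.37 ± 0.34, limma adjusted p = 0.0315). Against ILCP cells with a like number of detected assays the difference in Nfil3 was 3.43 cycles, that in Zbtb16 -5.35 and that in Rora -3.76.

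These 4 calls were lost when either ILCP pool was left out (0 called), and none remained after scaling to Actb, Gapdh and Hprt, where the smallest limma adjusted p was 0.0561. None remained either with shares of cells in place of levels or without the filter on rare assays. With the sort as a block 13 of 92 passed (14.1%), 3 higher and 10 lower. The lower ones were Zbtb16, Rora, Rxrg, Ets1, Ccr8, Igf2, Hes1, Megf10, H19 and Tbx21, and the higher ones included Nfil3 and Tsc22d3.

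Several other transcripts named above did not pass the test against ILCP cells without the block. Cxcr5 was detected in 24 of 62 and 41 of 90 ILCP cells, and its level differed by 1.31 and 0.08 cycles. Runx3 differed by 0.12 and 0.19 cycles, Tox by 0.87 and 0.24 and Il2rb by -0.09 and 1.44. Ets1 was less frequent than in ILCP cells (48 of 62 and 68 of 90), with differences of -2.62 and -1.36 cycles. Irf8 was detected in 25 of 62 (40.3%) and 30 of 90 (33.3%) ILCP cells, and lay 0.69 and 1.01 cycles higher in the Tcf7-detected aLP cells. A difference that did not pass does not show that the classes were alike. Type 2 genes as a list were lower, with a median of -0.65 cycles beside -0.22 over all assays. Of 11 tested, 10 were lower in both sorts and 1 higher, beside 45 and 22 of 92 over all assays. Rora and Rxrg passed (2 of 11, beside 4 of 92). Ccr8, a chemokine receptor of type 2 and skin-homing cells, was found in 36 of 62 and 41 of 90 ILCP cells and in 2 of 33 Tcf7-detected aLP cells.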

How the data were processed

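Single cells were assayed with 100 quantitative RT-PCR assays on a Biomark HD system after 22 cycles of preamplification, per the labels' protocols. The authors deposited Ct values that were not normalized, per the labels, and no other unit was used. A missing value was taken as not detected, and the rule for missing values is not stated in the labels. The sort is the number in each cell name, which no label defines. The members and gene lists were chosen with earlier results of these data known.

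The level was 24 minus Ct, or 0 if undetected, and pools were means over the cells of a class and sort. limma 3.58.1 (R 4.3.3; lmFit, eBayes, Benjamini-Hochberg, threshold 0.05) was fitted to 4 pool means, checked on simulated data, with Tcf7 left out and assays needing detection in 5% of the cells of a pool. The p-values measure only the spread between 2 pools a class. Same-sort pools deviated together (correlation over assays 0.36 between the aLP classes and 0.32 against ILCP, from 2 sorts), and both aLP classes come from the same sorted cells, so the sort is a pairing.

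Named genes were up to 12 called assays each way whose sign the sorts shared, filled to 24 by size, up to 10 a direction against ILCP, gate and housekeeping genes, and up to 4 a list by size. Others are examples chosen after their values were seen. Shares carry exact Clopper-Pearson 95% intervals, and a share of 0 the limit of 3 cells, both for counting error only. Alternatives covered detection limits, pool value, scaling, filters, weights, depth match and pools left out. Of the names, 98 matched a mouse gene table (GRCm38.p6) by symbol and 1 by synonym. Values of 2 assays are not reported here, although they stayed in the fits and counts. Python 3.11.15, pandas 2.3.3, scipy 1.17.1 and matplotlib 3.10.9 were used.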

Additional observations from a re-analysis of the deposited data

How the results depend on the processing

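Between Tcf7-detected and Tcf7-undetected aLP cells 0 assays passed. The number was 1 with a Ct limit of 22, with scaling to the cell median and without the assay filter, and 2 with scaling to Actb, Gapdh and Hprt. With the replicate block (the sort, which pairs the pools) it was 17, and with depth match and block 7. Leaving out each pool gave 0 throughout. Against ILCP cells 4 passed. The number was 0 with shares of cells, with scaling to the 3 housekeeping genes and without the filter, 1 with detecting cells only, 2 with weights, 13 with the replicate block and 8 with depth match and block. Leaving out each pool gave 0 to 3. The difference of 7.03 detected assays was 5.43 with cells of at least 20 assays. The causes of these changes were not tested. Of the values of single genes under alternatives, 618 kept direction and side of the threshold, 28 moved past it, 28 lost it and 26 turned.

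The turned values were these. Bcl2 was -0.13 with the depth match, with and without the block. Actb was -0.13 with cells of at least 20 assays, -0.21 without the Tcf7-undetected pool of sort 2, and -0.38 with the depth match, with or without the block. Gapdh was -0.022 with median scaling, -0.10 with at least 20 assays, -0.46 without the Tcf7-detected pool of sort 2, -0.31 without the Tcf7-undetected pool of sort 3 and -0.47 with the depth match, with or without the block. Hprt was 1.35 percentage points by share of cells, 0.59 cycles without the Tcf7-detected pool of sort 3, 0.017 without Zbtb16 cells and 0.71 without Zbtb16 or Cxcr5 cells. Tbp was -0.013 with a Ct limit of 28, -0.66 percentage points by share, -0.042 with median scaling, -0.006 with at least 20 assays, -0.18 with weights, -0.58 without the Tcf7-detected pool of sort 3, -0.54 without the Tcf7-undetected pool of sort 2, -0.052 with the depth match, with or without the block, and -0.14 with sort 3 cells numbered from 97. Leaving out each pool in turn gave a range of -0.21 to 0.90 for Actb, -0.46 to 0.86 for Gapdh, -1.20 to 0.59 for Hprt and -0.58 to 0.64 for Tbp. The matched fit with the block and the fit without Zbtb16 or Cxcr5 cells were chosen after seeing the data. The small pools limit what can be detected: in 17 and 16 cells a transcript carried by few cells can be missed.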

Other observations

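Some transcripts were found in 1 class of aLP cells only. These genes were chosen after their values were seen, and no test was made. Of the 99 other assays, 11 were detected in Tcf7-detected and in no Tcf7-undetected cell, 3 of them in at least 3 cells. They were Fbxo27, which encodes an F-box protein (5 of 17 cells of sort 2 and 2 of 16 of sort 3), Csf2, which encodes GM-CSF (2 of 17 and 4 of 16), and Megf10, which encodes an engulfment receptor (1 of 17 and 3 of 16). In the other direction 8 assays were detected only without Tcf7, led by Zbtb7b (19 cells), Tbx21 (7 cells) and Il13, a type 2 cytokine (4 cells). The classes differ in size, with 33 Tcf7-detected cells against 37 and 76 Tcf7-undetected cells of the sorts.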
